A study of Mus musculus with 4 samples.

Results

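The transcripts described here are those of 10 genes of the hypoxia response, Hif1a, Epas1, Egln1, Egln3, Vhl, Car9, Car12, Bnip3, Ndrg1 and Adm. They were taken by exact gene symbol from the 23746 gene rows of a mouse mammary tumor series, and all 10 were found, each as 1 row. All 10 were also among the 12752 genes that reached 1 FPKM (fragments per kilobase of transcript, scaled to the mapped fragments, a level corrected for transcript length) in at least 2 of the 4 tumors and were therefore tested. Polyadenylated RNA was sequenced from 4 primary mammary tumors of female mice. Tumors 26048 and 26050 carried the control genotype WapCre;Brca1;p53 (double mutant), and tumors 26043 and 26044 the genotype WapCre;Rank;Brca1;p53 (triple mutant). In both genotypes, controls included, the WapCre transgene (line WapCreC) with Cre activity in luminal and basal mammary epithelium deleted floxed alleles of the tumor suppressors Brca1 and p53. The triple-mutant females additionally lost Rank (Tnfrsf11a), the receptor of the cytokine RANKL, in the same cells. Whether host stroma, vessels and immune cells kept their alleles is not shown by these data. The study calls the females littermates and describes high-grade tumors in the double mutant alone, but which of the 4 tumors share a litter, and the age and grade of each, are not given in the sources used here. Each tumor is treated as 1 replicate by its label, and p-values measure only the spread between these 4 tumors.

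Cells sense oxygen through prolyl hydroxylases of the Egln family, which use oxygen to modify the alpha subunits of the hypoxia-inducible factors, encoded by Hif1a and Epas1. The modified subunits are bound by the product of Vhl, the substrate receptor of a ubiquitin ligase, and degraded. When oxygen is short the alpha subunits persist, pair with the Arnt protein and switch on genes for glycolysis, pH control, blood vessel growth and survival, and solid tumors with poor perfusion commonly show this program. Since the alpha subunits are controlled mainly as proteins, the transcript levels of Hif1a and Epas1 do not report their activity.

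The tumors differed in more than genotype. Summed over 6 epithelial markers, tumor 26044 had 371.1 FPKM against 1826 to 2857 FPKM in the others, and none of the 6 markers was at 0 in any tumor. Of these, the basal keratin Krt5 stood at 596 and 114 FPKM in tumors 26043 and 26044 but at 1.15 and 2.06 FPKM in tumors 26048 and 26050. Summed over 3 adipocyte markers, tumor 26048 had 1350 FPKM and tumor 26044 had 261.1 FPKM. Tumors 26043 and 26050 had 7.55 and 30.9 FPKM. In tumor 26044 the whole sum was Fabp4, with Adipoq and Plin1 at 0. The defining adipocyte gene Adipoq stood at 56.0 FPKM in tumor 26048 and under 1 FPKM in tumors 26043 and 26050. Macrophage markers (5 genes) ran from 149.9 and 150.9 FPKM in the triple-mutant to 313.6 and 467.1 FPKM in the double-mutant tumors, and endothelial markers (6 genes) from 27.9 FPKM in tumor 26050 to 91.7 FPKM in tumor 26044. Fibroblast markers (5 genes) summed to 97.9 and 173.3 FPKM in triple-mutant and 342.3 and 746 FPKM in double-mutant tumors, mostly Col1a1 and Col1a2, while Pdgfra lay the other way (2.90 and 19.1 against 1.63 and 1.44 FPKM) and Dcn overlapped. Fewer cells of a type and less RNA per cell cannot be told apart in such bulk samples, and the part of these cell types in the results below was not tested. Tnfrsf11a itself stood at 2.07 and 0.962 FPKM in the triple-mutant and at 10.6 and 11.9 FPKM in the double-mutant tumors. The number of reads behind each tumor is unknown, since FPKM keeps no plain record of it.

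To ask whether loss of Rank went along with another level of the hypoxia genes, triple-mutant were compared with double-mutant tumors across all tested genes with limma. None of the 10 genes passed an adjusted p of 0.05, and neither did any other gene (0 of 12752, 0%). At an unadjusted p under 0.05 there were 1252 genes, 9.82% of all tested, and among the hypoxia genes this was 1 of 10, Egln3. The tumors of the genotypes did not overlap for 4 of the 10 genes, against 44.3% of all tested genes, so the share of 40% was close to that background. Both triple-mutant tumors lay above both double-mutant tumors for Egln1 and Vhl (2 of 10, background 21.3%), and below them for Hif1a and Egln3 (2 of 10, background 22.9%). These 4 genes all belonged to the 5 factors and regulators, and 0 of the 5 target genes separated the genotypes. This split by role was not tested, and with TPM (FPKM scaled to a common sum) the target Car12 also did not overlap. The median log2 fold change of the 10 genes, triple minus double mutant on log2(FPKM + 1), was 0.13 and their mean was -0.21. Over all tested genes the median was -0.02.

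**Figure D1:**
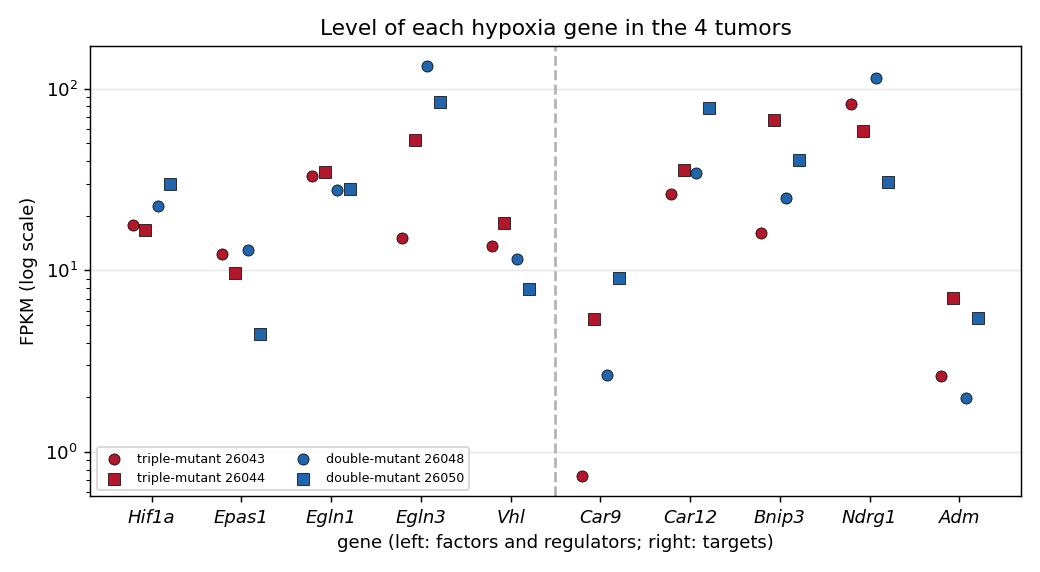
FPKM (log scale) of the 10 hypoxia genes in each tumor, with the factors and regulators left of the dashed line and the targets right of it; red points are triple-mutant and blue points double-mutant tumors, and circles and squares tell the tumors of 1 genotype apart. Egln3 has both red points (15.0 and 52.4 FPKM) under both blue points (84.4 and 133 FPKM), while Car9 spreads from 0.741 to 9.03 FPKM with the genotypes mixed.

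Hif1a, the alpha subunit found in most tissues, was lower in triple-mutant tumors, at 17.8 and 16.7 FPKM in tumors 26043 and 26044 against 22.5 and 29.9 FPKM in tumors 26048 and 26050. The genotypes did not overlap, and tumor 26050 stood highest. The means were 17.2 ± 0.763 and 26.2 ± 5.24 FPKM (SD, n = 2 each), and the log2 fold change of -0.57 (SE 0.30, adjusted p = 0.584) did not pass the test; it was -0.37 without tumor 26050. Epas1, whose product is the alpha subunit best known from endothelium and some epithelia, had 12.3 and 9.68 FPKM in the triple-mutant tumors and 13.0 and 4.48 FPKM in the double-mutant tumors. Here tumor 26048 was highest and tumor 26050 lowest, so that the control tumors enclosed the triple-mutant ones. Its log2 fold change was 0.45 (SE 0.54, adjusted p = 0.799), and it turned to -0.23 without tumor 26050. The ratio of Hif1a to Epas1 FPKM was 1.44, 1.72 and 1.74 in tumors 26043, 26044 and 26048 and 6.67 in tumor 26050. A high Hif1a and a low Epas1 thus met in 1 double-mutant tumor and not in the other.

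Of the prolyl hydroxylases, Egln1 and Egln2 were slightly higher and Egln3 was lower in both triple-mutant tumors, and none passed the test. Egln1, the main oxygen sensor acting on the alpha subunits in most cells, varied least of the 10 genes, with 33.1 and 34.8 FPKM in triple-mutant and 27.6 and 28.2 FPKM in double-mutant tumors. Both triple-mutant tumors were higher, by little, with a log2 fold change of 0.27 (SE 0.26, adjusted p = 0.738). Egln3, itself a strongly hypoxia-inducible gene that acts as feedback on the pathway, had 15.0 and 52.4 FPKM in triple-mutant tumors 26043 and 26044 and 133 and 84.4 FPKM in double-mutant tumors 26048 and 26050. Its levels separated the genotypes, tumor 26043 being lowest and tumor 26048 highest, but tumors 26043 and 26044 of the same genotype also differed 3.49-fold. The means were 33.7 ± 26.4 and 109 ± 34.2 FPKM (SD, n = 2 each), 3.22 times higher in double-mutant tumors, with a log2 fold change of -1.87 (SE 0.66, adjusted p = 0.50). This was the largest difference among the 10 genes, and it went from -1.002 without tumor 26043 to -2.74 without tumor 26044. Egln2, the family member outside the 10 genes, had 53.6 and 47.1 FPKM in triple-mutant and 38.8 and 42.2 FPKM in double-mutant tumors, with a log2 fold change of 0.31 (SE 0.26, adjusted p = 0.712).

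Added over Egln1, Egln2 and Egln3, the prolyl hydroxylase transcripts came to 101.8 and 134.3 FPKM in triple-mutant and to 199.1 and 154.8 FPKM in double-mutant tumors. Egln3 made up 14.8% and 39% of this sum in tumors 26043 and 26044 and 66.7% and 54.5% in tumors 26048 and 26050. It was thus the smallest of the 3 in tumor 26043 and the largest in the other 3 tumors. The ratio of Egln3 to Egln1 FPKM was 0.453 and 1.51 in tumors 26043 and 26044 and 4.81 and 2.99 in the controls, with no overlap, and like the shares it rests on the Egln3 values just given.

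**Figure D2:**
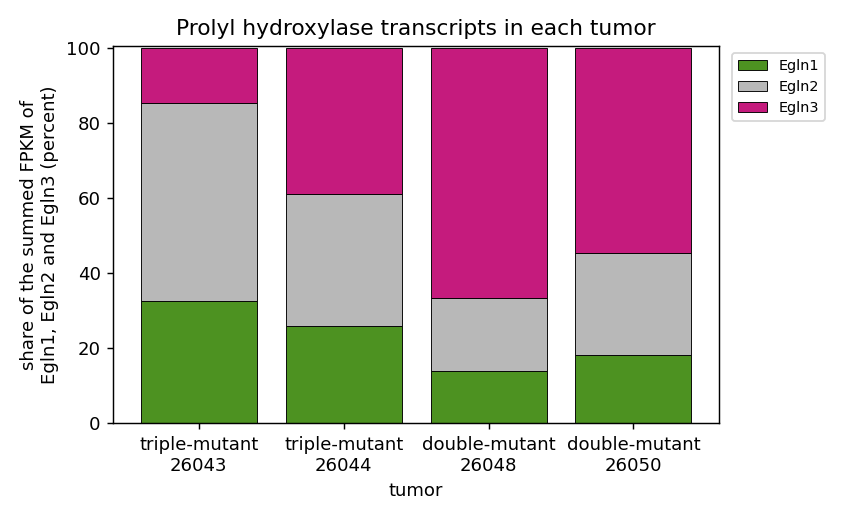
Share of Egln1, Egln2 and Egln3 in their summed FPKM (percent, stacked to 100) for each tumor. The Egln3 segment grows from 14.8% and 39% in the triple-mutant tumors to 66.7% and 54.5% in the double-mutant tumors.

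Vhl was higher in both triple-mutant tumors, at 13.6 and 18.4 FPKM against 11.6 and 7.87 FPKM in the double-mutant tumors. The gap between the nearest tumors, 26043 and 26048, was small beside the spread within each genotype. Means of 16.0 ± 3.39 and 9.72 ± 2.61 FPKM (SD, n = 2 each) gave a log2 fold change of 0.67 (SE 0.35, adjusted p = 0.586), which leaving out 1 tumor at a time moved between 0.42 and 0.92. Hif1a and Egln3 were therefore the genes below, and Egln1 and Vhl the genes above, the control tumors, none of them past the test.

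Of 14 further regulators of the factors, 13 were tested and 0 passed the adjusted threshold. An unadjusted p under 0.05 was reached by 2, Tceb2 and Arnt2, against 9.82% of all tested genes. For 8 of the 13 the genotypes did not overlap, 2 higher in triple-mutant and 6 higher in double-mutant tumors (background 44.3%, and 21.3% and 22.9% by direction), and the median log2 fold change was -0.17. Arnt, the common partner of the alpha subunits, had 13.2 and 14.8 FPKM in triple-mutant and 13.9 and 8.48 FPKM in double-mutant tumors (log2 fold change 0.33, SE 0.36, adjusted p = 0.772). Its relative Arnt2, a partner best known from neurons, was at 3.73 and 3.51 FPKM against 7.83 and 9.59 FPKM, lower in both triple-mutant tumors (log2 fold change -1.07, SE 0.31, adjusted p = 0.47). Tceb2, which encodes the elongin B subunit of the Vhl ligase, was the most abundant of the list at 786 and 968 FPKM in triple-mutant and 522 and 438 FPKM in double-mutant tumors (log2 fold change 0.87, SE 0.30, adjusted p = 0.488). Tceb1, for the elongin C subunit that binds next to it, lay the other way at 66.7 and 65.2 against 71.1 and 104 FPKM (log2 fold change -0.38, adjusted p = 0.701). Hif1an, the asparagine hydroxylase that blocks coactivator binding, had a log2 fold change of -0.32 (adjusted p = 0.729), and Siah1a, whose product marks prolyl hydroxylases for degradation, one of -0.38 (adjusted p = 0.71). Without tumor 26050 Arnt was at 0.0053 and Tceb1 at -0.11, and without tumor 26048 Siah1a at -0.24. Hif3a was too low to be tested, at 0.661 and 0.366 FPKM in triple-mutant and 0.0363 and 0.0612 FPKM in double-mutant tumors.

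Each of the 5 target genes overlapped between the genotypes, and each differed more within at least 1 genotype than between them. Car9, the cell-surface carbonic anhydrase IX used as a tissue marker of hypoxia, had 0.741 and 5.40 FPKM in triple-mutant tumors 26043 and 26044 and 2.66 and 9.03 FPKM in double-mutant tumors 26048 and 26050. The highest tumor exceeded the lowest 12.2-fold, the widest range of the 10 genes, and the genotypes overlapped. Its log2 fold change of -0.86 (SE 0.84, adjusted p = 0.748) became 0.08 without tumor 26043. Car12, the related carbonic anhydrase XII, had 26.5 and 35.8 FPKM in triple-mutant and 34.3 and 78.6 FPKM in double-mutant tumors. Tumor 26050 stood above the other 3, which lay close together, and the log2 fold change was -0.74 (SE 0.48, adjusted p = 0.646), moving to -0.15 without tumor 26050 and to -1.33 without tumor 26048. Bnip3, a mitophagy receptor of the outer mitochondrial membrane, ran from 16.0 FPKM in tumor 26043 to 67.7 FPKM in tumor 26044, with 25.2 and 40.3 FPKM in tumors 26048 and 26050 between them. The triple-mutant tumors thus enclosed both controls and differed 4.23-fold from each other, with a log2 fold change between genotypes of 0.06 (SE 0.75, adjusted p = 0.984).

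Ndrg1, a stress-induced gene of epithelial differentiation, was at 82.1 and 58.3 FPKM in triple-mutant and at 115 and 30.8 FPKM in double-mutant tumors. The control tumors enclosed the triple-mutant ones as they did for Epas1. The mean was slightly higher in double-mutant tumors on the FPKM scale (72.9 ± 59.5 against 70.2 ± 16.8 FPKM; SD, n = 2 each) but lower on the log2 scale, where the log2 fold change was 0.21 (SE 0.68, adjusted p = 0.928). Adm, which encodes the vasodilator peptide adrenomedullin, had 2.63 and 7.07 FPKM in triple-mutant and 1.99 and 5.50 FPKM in double-mutant tumors. Each genotype held 1 low and 1 high tumor, and the log2 fold change was 0.29 (SE 0.61, adjusted p = 0.886). Bnip3, Ndrg1 and Adm all changed direction when a single tumor was left out, with ranges of -0.95 to 1.06, -0.72 to 1.14 and -0.28 to 0.87.

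**Figure D3:**
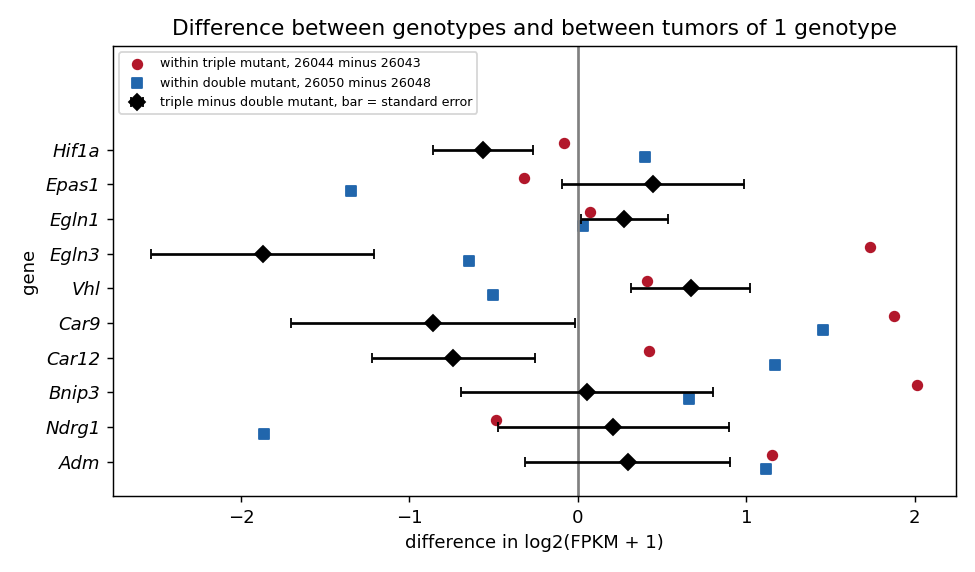
Difference in log2(FPKM + 1) for each of the 10 genes; black diamonds with bars give triple minus double mutant and its standard error, red circles tumor 26044 minus 26043 within the triple mutant and blue squares tumor 26050 minus 26048 within the double mutant. For the 5 targets and Epas1, whose genotypes overlap, at least 1 coloured point lies farther from 0 than the diamond. Overlap between tumors in pairs alone requires this. For Egln3 the diamond at -1.87 lies on the other side of 0 from the red circle.

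When the tumors of 1 genotype were set against each other, 4 of the 5 target genes, Car9, Car12, Bnip3 and Adm, were higher in tumor 26044 than in 26043 and also higher in tumor 26050 than in 26048. Ndrg1 was lower in both. This pattern was noticed after the values were seen, and it is given as a description without a test. Among the 5 factors and regulators it held for 1, Egln1, by small differences. It held for 16 of 33 other hypoxia targets (48.5%), for 1 of the 13 further regulators (7.69%), and for 2223 of all 12752 tested genes (17.4%). For the 5 target genes the median absolute difference between tumors of 1 genotype was 1.15 log2 units (triple mutant) and 1.17 (double mutant). For all tested genes it was 0.45 and 0.36. The median absolute log2 fold change between genotypes was 0.29 for the 5 target genes and 0.38 for all tested genes. A difference between 2 single tumors varies more than one between 2 means, so these values are not on equal terms. Tumor 26044, with the low epithelial and the high endothelial markers, was the highest of the 4 for 42.4% of the 33 other targets and for 24.2% of all tested genes. Pgk1 and Eno1, 2 glycolytic enzymes chosen after their values were seen, stood at 291 and 307 FPKM in tumor 26043, 753 and 774 FPKM in tumor 26044, 401 and 400 FPKM in tumor 26048, and 746 and 874 FPKM in tumor 26050. Both genes were therefore high in the same tumors as Car9, 1 of each genotype.

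**Figure D4:**
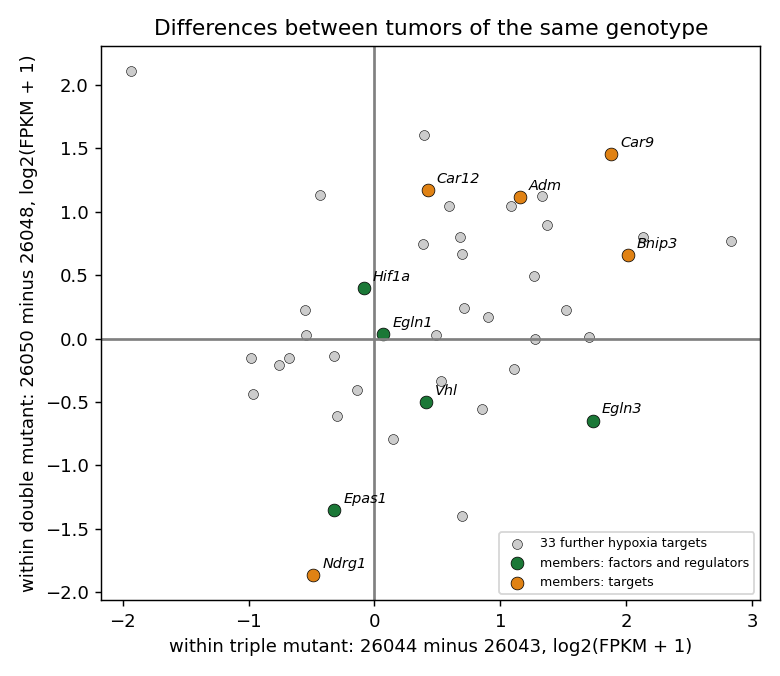
Difference between tumors of 1 genotype in log2(FPKM + 1), tumor 26044 minus 26043 on the x axis and tumor 26050 minus 26048 on the y axis; orange points are the 5 target genes, green points the 5 factors and regulators, grey points 33 other hypoxia targets. Car9, Car12, Bnip3 and Adm lie at the upper right, above 0 on both axes, with 16 of the 33 grey points, and Ndrg1 and Epas1 in the lower left.

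The promoters of the 3 genes with the widest range over the tumors, Car9, Egln3 and Bnip3, are shown to set the letters of the hypoxia response element beside these values. The element has the core ACGTG or GCGTG, which the hypoxia-inducible factors bind next to the start of many targets. Each run covers 250 bases before to 50 bases after the RefSeq start on GRCm38.p6, in the direction of transcription, and capitals mark a core on either strand (CACGT and CACGC are the cores read on the reverse strand). Car9 is chr4:43506776-43507075 on the plus strand, Egln3 is chr12:54203825-54204124 on the minus strand, and Bnip3 is chr7:138909457-138909756 on the minus strand.
Car9: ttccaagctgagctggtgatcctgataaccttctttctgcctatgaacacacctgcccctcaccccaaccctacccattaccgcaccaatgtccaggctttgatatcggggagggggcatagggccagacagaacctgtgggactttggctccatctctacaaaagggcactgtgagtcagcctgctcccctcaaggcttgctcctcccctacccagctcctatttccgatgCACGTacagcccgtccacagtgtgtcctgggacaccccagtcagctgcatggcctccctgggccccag
Egln3: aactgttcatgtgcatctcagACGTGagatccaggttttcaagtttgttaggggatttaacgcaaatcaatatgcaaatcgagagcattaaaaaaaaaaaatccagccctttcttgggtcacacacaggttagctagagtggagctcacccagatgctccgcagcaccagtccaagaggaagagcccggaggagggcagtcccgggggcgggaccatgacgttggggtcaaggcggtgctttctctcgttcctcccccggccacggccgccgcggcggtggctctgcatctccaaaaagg
Bnip3: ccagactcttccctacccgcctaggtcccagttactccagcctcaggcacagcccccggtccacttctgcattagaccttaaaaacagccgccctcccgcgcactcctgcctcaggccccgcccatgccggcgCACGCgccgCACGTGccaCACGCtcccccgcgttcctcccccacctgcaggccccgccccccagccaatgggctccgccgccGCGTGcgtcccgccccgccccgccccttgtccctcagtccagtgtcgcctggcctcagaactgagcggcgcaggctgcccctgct

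Car9 held 1 core, an ACGTG on the reverse strand at position -18 from the start, and Egln3 held 1 ACGTG, at position -229. Bnip3 held 5, at positions -117, -108, -107, -99 and -35, of which those at -108 and -107 are the same palindrome CACGTG read on both strands. Of the 10 genes, 8 had a promoter in the table used, and 6 of these 8 held at least 1 core, 5 of them an ACGTG. Among all 32851 mouse promoters of this length in the table, 43.8% held either core and 19.6% held ACGTG. Car12 and Vhl held none in this window, although Car12 shared the pattern of Car9 and Bnip3 between tumors. A match is a run of letters and not a measured binding site.

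In order of their mean FPKM over the 4 tumors, the genes ran from Ndrg1 (71.5 ± 35.7, SD, n = 4), Egln3 (71.1 ± 49.9) and Car12 (43.8 ± 23.6) over Bnip3 (37.3 ± 22.6), Egln1 (30.9 ± 3.58) and Hif1a (21.7 ± 6.02) to Vhl (12.8 ± 4.37), Epas1 (9.86 ± 3.86), Car9 (4.46 ± 3.6) and Adm (4.3 ± 2.4). FPKM is corrected for length, but these levels can be set side by side only with care. In all 4 tumors Hif1a and Bnip3 lay below, and Egln1 and Epas1 above, the confidence interval reported with their FPKM. All 9 neighbouring pairs in this order also had overlapping ranges. The most abundant of the 10 was Ndrg1 in tumor 26043, Bnip3 in tumor 26044 and Egln3 in both double-mutant tumors.

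Other targets of the pathway did not separate the genotypes as a group. Of 33 such genes, all tested, 0 passed the adjusted threshold (adjusted p from 0.214 to 0.996). An unadjusted p under 0.05 was reached by 3, against 9.82% of all tested genes. For 9 the genotypes did not overlap, 4 higher in triple-mutant and 5 higher in double-mutant tumors, a smaller share than the 44.3% of all tested genes, and 18 log2 fold changes were positive and 15 negative with a median of 0.22, which turned to -0.21 without tumor 26044. Lox, the collagen crosslinking enzyme lysyl oxidase, differed most at 1.38 and 0.41 FPKM in tumors 26043 and 26044 against 11.1 and 9.46 FPKM in the controls (log2 fold change -2.62, SE 0.40, adjusted p = 0.214). It is also made by fibroblasts, of whose 5 markers Col1a1, Col1a2 and Lum were lower, Pdgfra higher and Dcn overlapping in the triple-mutant tumors, and their part was not tested. Hmox1, the heme-degrading enzyme, was also lower in triple-mutant tumors, at 13.0 and 17.4 against 20.0 and 63.1 FPKM (log2 fold change -1.20, adjusted p = 0.577). On the other side stood P4ha2, a collagen prolyl hydroxylase, at 11.5 and 16.5 against 7.71 and 7.86 FPKM (log2 fold change 0.75, adjusted p = 0.537), the Myc antagonist Mxi1 at 0.75 (adjusted p = 0.63) and the mitochondrial gene Higd1a at 0.69 (adjusted p = 0.577). Without tumor 26044 Mxi1 was at 0.20 and Higd1a at 0.33, and Hmox1 ran from -0.39 without tumor 26050 to -2.0003 without tumor 26048.

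Both best-known targets of the pathway overlapped between genotypes. Vegfa, the main angiogenic growth factor, had 15.6 and 46.7 FPKM in triple-mutant and 20.4 and 24.0 FPKM in double-mutant tumors, and tumor 26044 alone stood out (log2 fold change 0.28, adjusted p = 0.885). Slc2a1, the glucose transporter Glut1, had 64.1 and 103 FPKM against 60.7 and 107 FPKM, 1 low and 1 high tumor in each genotype, and its log2 fold change was 0.01 (adjusted p = 0.993).

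**Figure D5:**
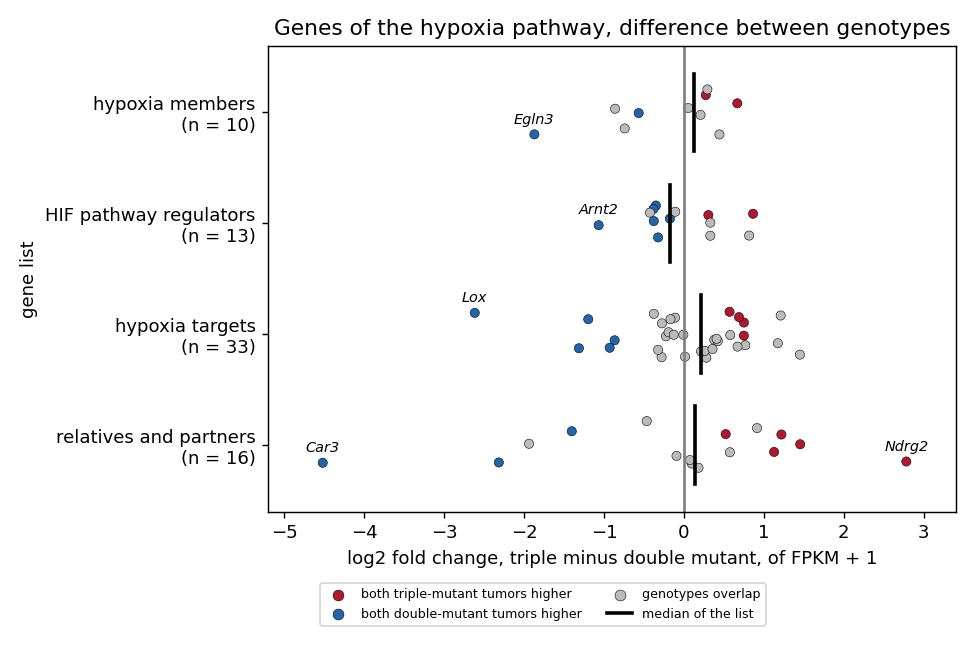
Log2 fold change of FPKM + 1 (triple minus double mutant) for the tested genes of 4 lists, 1 point a gene with random vertical offset; red and blue points are genes whose genotypes do not overlap, grey points those that do, and the black bar is the median of the list. The medians lie at 0.13, -0.17, 0.22 and 0.14, and Egln3, Arnt2, Lox, Car3 and Ndrg2 are named at the ends.

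Relatives and partners of the target genes were 22 other carbonic anhydrases, Ndrg genes, adrenomedullin receptor genes and the related ligand gene Adm2. Of these, 16 were tested and 0 passed the adjusted threshold. An unadjusted p under 0.05 was reached by 3, against 9.82% of all tested genes. For 8 the genotypes did not overlap (5 higher in triple-mutant, 3 in double-mutant tumors), a share of 50% against a background of 44.3%. Among these 8, Car3 and Car11 reached 1 FPKM only in the tumors of the genotype where they were higher. They were thus tested because of the same values that separate the genotypes. The median log2 fold change of the 16 was 0.14 with a mean of -0.11. The median became 0.55 without tumor 26048. Car3 and Car2, cytosolic carbonic anhydrases, lay lowest. Car3, abundant in adipocytes, had 0.52 and 0 FPKM in triple-mutant and 277 and 1.87 FPKM in double-mutant tumors (log2 fold change -4.52, adjusted p = 0.568), highest in tumor 26048 with its adipocyte markers, whose part was not tested. Car2 had 25.5 and 1.83 against 57.6 and 30.6 FPKM (log2 fold change -2.32, adjusted p = 0.569). Leaving out 1 tumor moved Car2 between -0.70 (without tumor 26044) and -3.93 (without tumor 26043), and Car3 between -1.22 (without tumor 26048) and -7.82 (without tumor 26050). Unlike Ndrg1, its relative Ndrg2, a growth-restraining gene of differentiated cells, was higher in both triple-mutant tumors at 20.6 and 86.5 against 9.74 and 2.70 FPKM (log2 fold change 2.78, SE 0.88, adjusted p = 0.48), as was Ndrg3 (log2 fold change 1.22, adjusted p = 0.56), while Ndrg4 was lower (log2 fold change -1.40, adjusted p = 0.443). The adrenomedullin receptor component Ramp3 had a log2 fold change of 1.46 (adjusted p = 0.552). Without tumor 26044 Ndrg2 was at 1.77 and Ramp3 at 0.58, and without tumor 26050 Ndrg3 was at 0.60.

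The genes next to the hypoxia genes were examined because tumors without Brca1 and p53 commonly gain and lose chromosome segments. Egln3 lies on chromosome 12 from 54178981 to 54203874 and Hif1a on the same chromosome from 73907867 to 73947530 (mm10, minus and plus strand). All 7 tested genes that start within 1 Mb of Egln3 had a negative log2 fold change, with a median of -0.64. The lowest values were at Snx6 and Baz1a (-0.96 each). Of the 7, 6 were higher in both double-mutant tumors without overlap, as were 22.9% of all tested genes. Around Hif1a 7 of 8 were negative, with a median of -0.52. Over the whole of chromosome 12, 78.4% of 436 tested genes were negative with a median of -0.41, against 51.6% and -0.02 for all tested genes. Less the median of their chromosome, the log2 fold change was -1.46 for Egln3 (-1.87 before) and -0.16 for Hif1a (-0.57 before). By tumor, the median of chromosome 12 genes from their own mean was -0.06 and -0.35 in tumors 26043 and 26044 and 0.18 and 0.27 in tumors 26048 and 26050. Genes of the other chromosomes had 0.06 and -0.095 in tumors 26043 and 26044 and 0.03 and -0.03 in tumors 26048 and 26050. DNA copy number was not measured here, and its part in these values was not tested.

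Egln1, on chromosome 8 from 124908587 to 124949254 on the minus strand, showed the reverse, being higher in triple-mutant tumors although 15 of 16 tested neighbours were negative (median -0.46). Chromosome 8 had a median of -0.36 over 682 genes, and Egln1 less this median stood at 0.63. By tumor, the chromosome 8 median was 0.05 and -0.44 in tumors 26043 and 26044 and 0.20 and 0.15 in tumors 26048 and 26050. The other chromosomes had 0.06, -0.09, 0.02 and -0.03 in this order. Of the triple-mutant tumors only tumor 26044 was thus low on chromosome 8. Epas1, on the plus strand of chromosome 17 from 86753864 to 86833410, likewise stood at 0.45 while its 12 neighbours had a median of -0.50. Of these neighbours 8 were negative, all 8 without overlap, against 22.9% of all tested genes without overlap in this direction. Around Vhl, on the plus strand of chromosome 6 from 113624021 to 113631633, 15 of 22 neighbours were positive with a median of 0.24, below the 0.67 of Vhl itself. The neighbours of the 5 target genes had medians from -0.29 to 0.15.

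The genes whose pattern over the 4 tumors was most like that of Egln3, by Euclidean distance between centred log2(FPKM + 1) values, were Clec3b (distance 0.43), Serpina3n (0.46), Col9a1 (0.49), Trib3 (0.50) and Trp53 (0.51). Trp53, the p53 gene whose floxed alleles were deleted in both genotypes, had 15.7 and 87.8 FPKM in triple-mutant tumors 26043 and 26044 and 150 and 103 FPKM in double-mutant tumors 26048 and 26050. As for Egln3, tumor 26043 was lowest and tumor 26048 highest. With 12752 genes and 4 tumors many genes come close to any pattern.

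Cufflinks reported a confidence interval with each FPKM, and the value itself lay inside it in 14 of 40 cases, below it in 11 and above it in 15. Hif1a and Bnip3 were below their interval and Egln1 and Epas1 above it in all 4 tumors. With the midpoint of the interval in place of the FPKM, Hif1a had a log2 fold change of -0.32, and the 4 genes that separated the genotypes kept their direction. The status of every value was OK.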

How the data were processed

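The authors isolated polyA RNA from 4 tumors, made strand-specific libraries and sequenced 50-base single-end reads. The submitters' processing notes name mm10, TopHat2 2.0.10, Bowtie 0.12.9, HTSeq, Cufflinks 2.1.1 and DESeq2 1.6.2. The deposited tables hold FPKM, estimated by the authors with Cufflinks, its interval and a status, 1 table a tumor. The authors' read counts were not used here, so the count test was replaced, and depth is unknown. The strand setting of Cufflinks is not given in the sources used here. GENCODE lists antisense genes over Car9, Adm, Bnip3, Hif1a and Ndrg1, whose reads could then be shared. It also lists a gene on the same strand over each of Hif1a and Epas1, where reads could be shared under any strand setting.

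The tables were joined on symbol and position. A gene was kept if 2 or more tumors reached 1 FPKM, and limma 3.58.1 (R 4.3.3, lmFit, then eBayes with a trend) was applied to log2(FPKM + 1), triple minus double mutant, Benjamini-Hochberg adjusted over all 12752 genes at a threshold of 0.05. Such fold changes understate low genes. With 2 tumors against 2 an exact two-sided permutation test cannot go below p = 0.333. Python 3.11.15, pandas 2.3.3 and numpy 2.4.6 joined the tables.

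The hypoxia genes and all lists were chosen with earlier results of these data known. Named are the 10 genes, in each list up to 3 genes per direction with the largest log2 fold change among genes without overlap, Vegfa, Slc2a1, Arnt, Egln2, Hif1an and Tnfrsf11a for their role, and the 5 genes most like Egln3. The values of 1 listed gene are not reported here. Promoters came from RefSeq (GRCm38.p6), where Epas1 and Ndrg1 had no entry.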

Additional observations from a re-analysis of the deposited data

How the results depend on the processing

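No paired analysis was possible because the labels give each tumor its own number. The alternatives were TPM, size factors or quantile normalization, limma with no trend, the midpoint of the interval, genes of status OK, no filter or one at 5 FPKM, a pseudocount of 0.1 and each tumor left out, with the chromosome median subtracted added after seeing the data. The adjusted threshold was passed by 0 genes, but by 6 with quantile normalization, 5 without the trend and 1 with the interval midpoint, and none of them was one of the 10. All 10 kept their direction in 90 of 90 comparisons with every tumor kept. Among these, both filter settings, the fit with no trend and the genes of status OK leave a fold change as it is. Direction could not change there, so only the other settings bear on it. Leaving out 1 tumor reversed 8 of 40, with log2 fold changes from -0.23 to 1.12 for Epas1, -1.80 to 0.0786 for Car9, -0.95 to 1.06 for Bnip3, -0.72 to 1.14 for Ndrg1 and -0.28 to 0.87 for Adm. Vegfa then ran from -0.48 to 1.04 and Slc2a1 from -0.39 to 0.42, and Slc2a1 was also below 0 with TPM (-0.0163), quantile normalization (-0.0020) and the midpoint (-0.0868). With 3 tumors left, genes without overlap numbered 6 to 8 of the 10 genes and 9 to 12 of the further regulators. They numbered 18 to 24 of the other targets and 9 to 13 of the relatives. Fewer tumors alone make overlap rarer. The share among all tested genes is not given for 3 tumors, so these counts have no background and do not bear on the genotypes. The median then ran from -0.40 to 0.18 for the 10 genes from -0.39 to -0.11 for the further regulators, from -0.21 to 0.28 for the other targets and from 0.06 to 0.55 for the relatives. With the midpoint 5 further regulators did not overlap, and with the filter of 5 FPKM 3 relatives. With TPM Car12 also did not overlap. The genotype left with 1 tumor was assumed to vary like the other. Precision is limited by 2 tumors a genotype and by the unknown depth.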
